A study of Mus musculus with 5 samples.

Results

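The common dendritic cell progenitor (CDP) of mouse bone marrow was compared with the classical monocyte of the same marrow across all genes measurable on either array. Members were the genes whose higher value on the 2 arrays reached the median of all gene values in the table, a floor of 6.27 on its log2 scale, which 10469 of 19938 named genes did (52.5%). Both populations came from untreated wild-type C57Bl/6 mice and were sorted to a stated purity above 95%. Both lacked the lineage markers of mature blood cells and carried CD115, the receptor for the growth factor M-CSF. CDPs were gated as cells with intermediate CD117 and with CD135, and classical monocytes as Ly6C+ TremL4- cells. The study hybridised 1 array for each of 5 populations. The other three, used here to place the genes of the comparison, were the monocyte-dendritic cell progenitor (MDP, with CD117 and CD135), the common monocyte progenitor (cMoP, with CD117 and without CD135) and the Ly6C- TremL4+ nonclassical monocyte, all lineage-negative, CD115+ and from the same kind of mice. The sources used here do not give age, sex or the number of animals behind an array.

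Dendritic cells and monocytes are both made in marrow from progenitors that carry CD115. The CDP still divides and gives rise to the precursors of conventional and plasmacytoid dendritic cells, under the control of the cytokine Flt3L, whose receptor is CD135. The classical monocyte is the product of the other branch. It leaves the marrow through the chemokine receptor CCR2, enters inflamed tissue, engulfs microbes and can become a macrophage or, in blood, a nonclassical monocyte. The comparison therefore sets a progenitor of one branch against a nearly mature cell of the other.

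A difference is the CDP value minus the classical monocyte value, in log2 units, so that 1 unit is 2-fold. A gene was called higher on an array where the difference was 1 unit or more. With 1 array a population no test was possible, no value has a replicate check, and the precision is limited by there being 1 array a side. Where the lower value lay under the floor, the fold was set against the floor and is a lower bound. The deposited table holds many exact ties between arrays: 799 of the 10469 genes (7.63%) had the same value on both arrays to the last digit. A difference of 0 therefore may not be a measurement of equality. In sorted bulk cells, fewer cells that express a gene and less of its RNA in each cell cannot be told apart.

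The genes of the sort gates followed the labels where they could be read. Flt3, which encodes CD135, read 10.74 on the CDP array and 6.74 on the classical monocyte array, 15.99-fold higher in CDP. Kit, which encodes CD117, read 8.16 and 5.79, at least 3.71-fold higher in CDP and below its level on the MDP array (10.11). Csf1r, which encodes CD115, read 10.51 and 10.90, a difference of -0.39. Treml4 was under the floor on both arrays (5.42 and 6.18) and reached 11.78 on the nonclassical array. No probe set names 1 Ly6C gene alone, so that side of the gate was not checked here.

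More genes were higher on the classical monocyte array than on the CDP array. By 1 log2 unit or more, 249 genes were higher in CDP, which is 2.38% of the genes compared, and 664 were higher in classical monocytes, which is 6.34%. Together these 913 genes are 8.72% of all, and 72.7% of them were higher in the monocyte. At 2 units or more, which is 4-fold, 53 genes (0.506%) were higher in CDP and 189 (1.81%) in classical monocytes. At 8-fold 22 and 68 genes were past, and at 16-fold 4 and 19. Most genes lay close together: 7714 (73.7%) differed by less than 0.5 units, the median difference over all 10469 was 0 and the mean was -0.09. The scatter of both arrays shows this as a dense diagonal with a longer tail toward the monocyte.

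**Figure D1:**
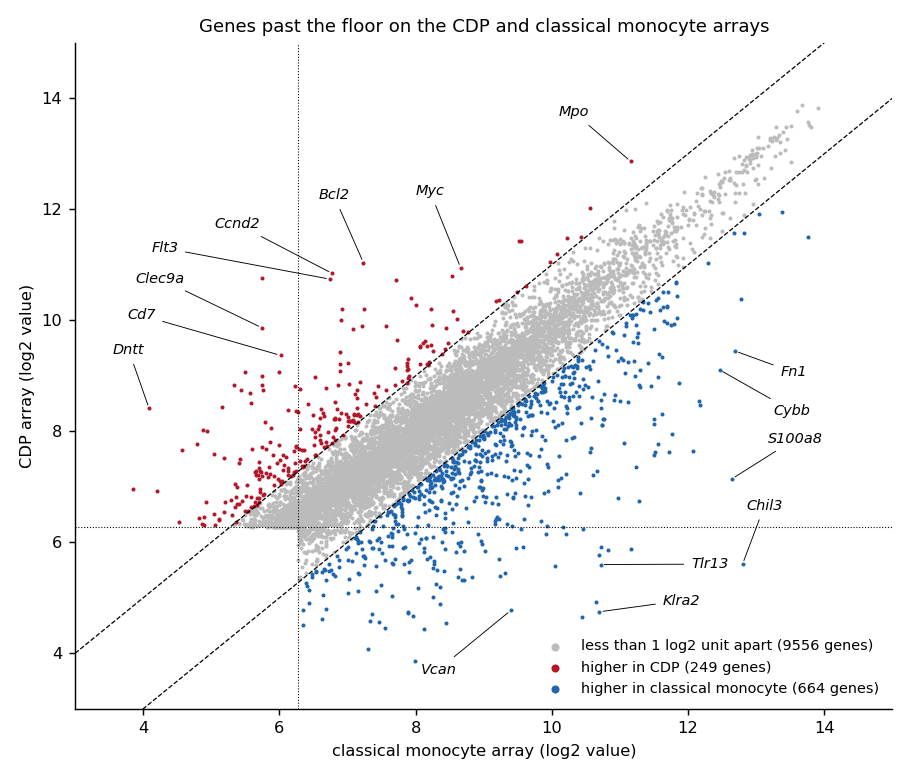
Each point is 1 of the 10469 genes, with its log2 value on the classical monocyte array (horizontal axis) and on the CDP array (vertical axis). Dashed lines mark a difference of 1 log2 unit and dotted lines the floor of 6.27. The 664 blue genes, higher in classical monocytes, reach farther from the diagonal than the 249 red genes, higher in CDP, with Chil3 at -7.19 the farthest.

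The 20 genes with the largest differences toward CDP had varied known roles, and those that stand on a list below are described with it. The largest difference was that of I730030J21Rik, a transcript without a named protein, with 10.76 on the CDP array and 5.75 on the monocyte array (at least 22.5-fold higher). Bcl2, which encodes an inhibitor of cell death, read 11.04 against 7.23, 13.98-fold higher. Tet1, which encodes an enzyme that oxidises methylated DNA, read 9.07 against 5.49, at least 6.95-fold higher. Its 3 probe sets gave differences of 2.56 to 3.57. Il12a, which encodes a subunit of the cytokine interleukin 12, read 8.84 against 5.33, a difference of 3.51. Tfrc, the receptor through which dividing cells take up iron, read 10.01 against 6.91 (3.10). Fads2, which desaturates fatty acids, read 8.68 against 5.57 (3.11). The rest of the 20 genes with the largest positive differences include Nedd4, an E3 ubiquitin ligase (3.26), B3gnt5, which starts the lacto-series glycolipids (3.31), Upk1b, a tetraspanin (3.16), Atp1b1, a subunit of the sodium pump (3.09), and Rtn4rl1, a homologue of the Nogo receptor (3.08). For 15 of these 20 the monocyte value was under the floor.

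The largest difference toward the monocyte was that of Chil3, a chitinase-like lectin. It read 5.26 on the MDP, 5.61 on the CDP, 8.90 on the cMoP, 12.80 on the classical and 7.81 on the nonclassical array. It was at least 92.5-fold higher in classical monocytes than in CDP. Klra2, a receptor of the Ly49 family, read 4.75 on the CDP array and 10.70 on the monocyte array (at least 21.5-fold). Msr1, a scavenger receptor, read 4.65 and 10.44 (at least 18.02-fold). S100a8 and S100a9 encode the subunits of calprotectin, which binds metals and is abundant in myeloid cells. S100a8 read 7.14 and 12.64 (45.3-fold), and S100a9 read 7.65 and 12.07 (21.5-fold). Both also differed between the progenitors, with S100a8 at 11.23 on the cMoP array. Vcan, a matrix proteoglycan, read 9.40 on the classical array and between 4.55 and 4.97 on the other four. Gda, which deaminates guanine, read 5.91 and 10.71 (at least 21.8-fold). Slfn1 (-4.92), Gm9733 (-5.72) and the lectins and Tlr13 described with their families stood in the same range. The CDP value was under the floor for 14 of the 20 genes with the largest negative differences. The map of these 40 genes over all 5 arrays shows that several on the CDP side were as high on the MDP array, and several on the monocyte side as high on the nonclassical array.

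**Figure D2:**
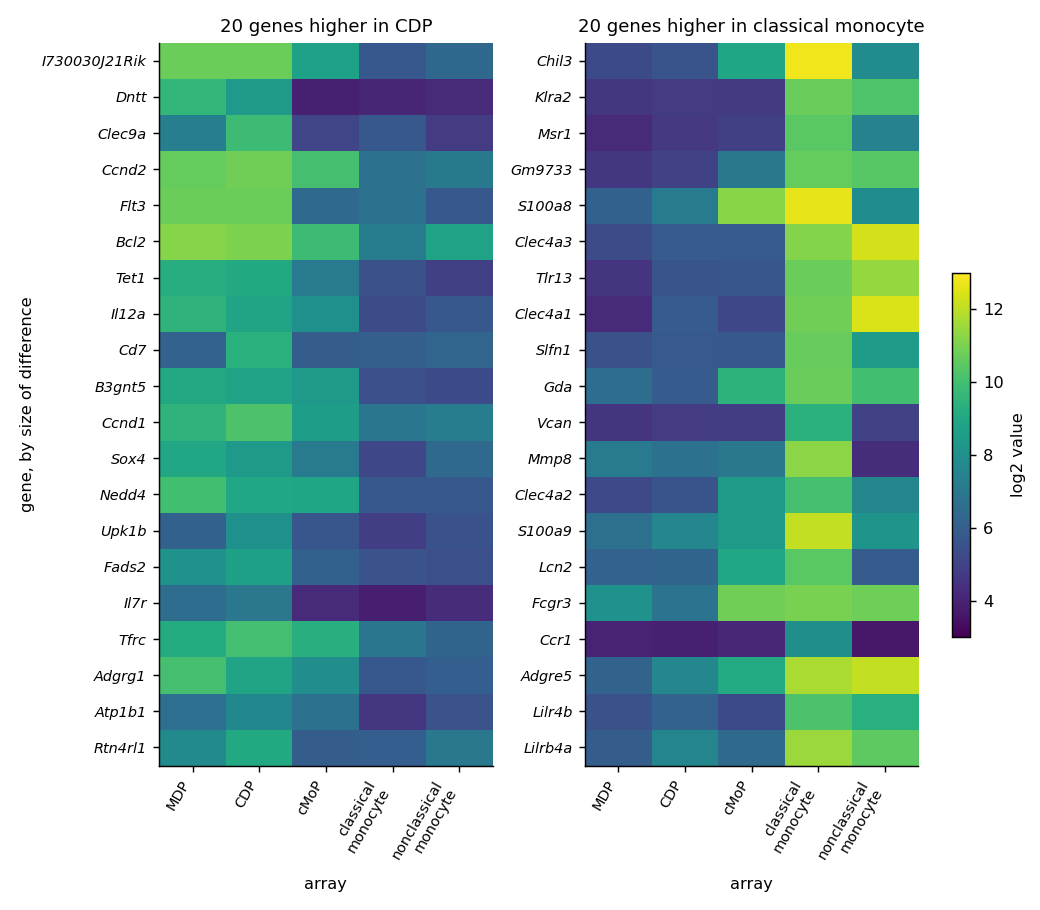
Colour gives the log2 value of the 20 genes with the largest difference in each direction (rows, largest at the top) on the 5 arrays (columns). In the left panel Cd7 and Clec9a are brightest on the CDP array (9.37 and 9.86), while Dntt is brightest on the MDP array (9.61). In the right panel Vcan and Ccr1 are bright on the classical monocyte array alone (9.40 and 7.99).

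Gene lists were used to group the remaining members, and each list is described by its counts and its median beside the median of 0 over all genes. Of 615 listed genes 570 were measured and 462 were past the floor, 387 of them on both arrays. The other 75 passed on 1 array alone, 33 on the CDP and 42 on the monocyte array, and so could only be higher there. For several lists, among them those that lean most to a side, the counts over members past the floor on both arrays are given too. Over all genes, 9529 were past it on both arrays, of which 139 were higher in CDP and 512 in the monocyte. Of all 10469 genes compared, 2.38% were higher in CDP and 6.34% in the monocyte, and the list counts below stand beside these shares. The plot of the lists orders them by their medians, from lymphoid-primed genes at 2.48 to classical monocyte genes at -3.12.

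**Figure D3:**
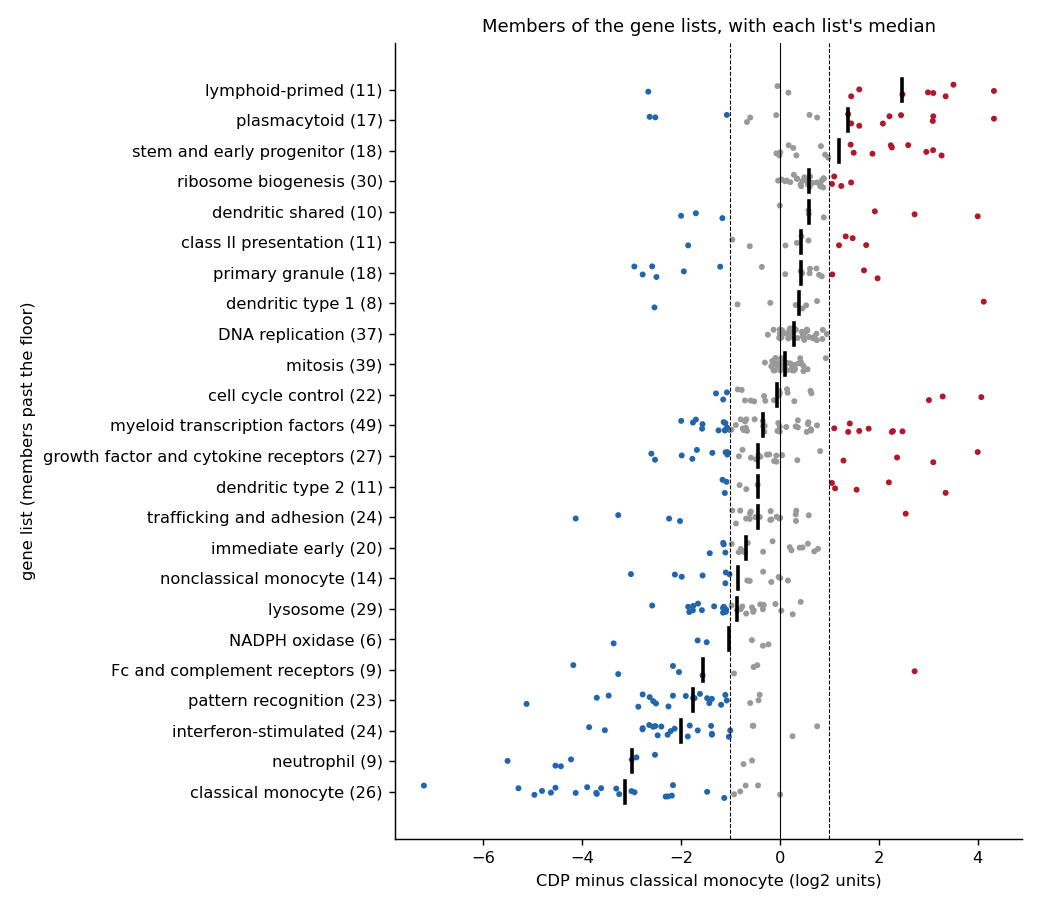
Each point is a list member past the floor, placed by its difference (CDP minus classical monocyte, log2 units). Black bars are list medians, dashed lines mark 1 unit either way, red and blue points lie past them, and the number of members is in brackets. No member of the mitosis and DNA replication lists lies past a dashed line, while 20 of 24 interferon-stimulated and 21 of 26 classical monocyte genes lie past the left one.

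Stem and early progenitor genes stood higher in CDP. Of 18 members past the floor (27 measured), 9 were higher in CDP and 0 in the monocyte, with a median of 1.20. Past the floor on both arrays were 10, of which 4 were higher in CDP. Cd34, a sialomucin of early blood cells, read 10.20 on the CDP and 7.24 on the monocyte array (7.78-fold higher). Sox4, a transcription factor of progenitors, read 8.43 and 5.16 (3.27), and Erg, an ETS factor of stem cells, read 8.37 and 6.13 (2.24). Myb, which sustains proliferating progenitors, read 10.80 and 8.54 (2.26). Adgrg1 (3.10), Cd27 (2.59), Cd93 (1.87), Egfl7 (1.49) and Spns3 (1.43) were the other five. The list was not uniform. Lmo2, an adaptor of blood transcription complexes (-0.07), and Hhex, a homeobox repressor (-0.01), had nearly the same value on both arrays. Across the 5 arrays the list's median was highest on the MDP array (8.80), then CDP (8.31), cMoP (7.61), nonclassical (6.66) and classical (6.38).

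Genes of the lymphoid program formed a second group on the CDP side. Of 11 lymphoid-primed genes past the floor (18 measured), 8 were higher in CDP and 1 in the monocyte, with a median of 2.48. Past the floor on both arrays were 4, of which 2 were higher in CDP. Dntt encodes terminal transferase, which adds bases at antigen receptor joints in lymphoid precursors. It read 9.61 on the MDP, 8.41 on the CDP, 3.89 on the cMoP, 4.09 on the classical and 4.25 on the nonclassical array, so that the arrays of cells gated on CD135 were high and the other three were under the floor. Il7r, the receptor of interleukin 7, read 6.95 on the CDP array and 3.85 on the monocyte array. Cd7, a surface protein of lymphoid and some dendritic cells, read 9.37 on the CDP array and between 5.95 and 6.24 on the other four. Satb1, a chromatin organiser of lymphocytes (2.48), Aff3 (2.99), Bcl11a (1.61) and Ly6d (1.44) were also higher in CDP. Cnr2, the cannabinoid receptor of leukocytes, went the other way, with 5.61 on the CDP and 8.27 on the monocyte array.

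Markers of B, T and NK cells, some of them of B cell precursors, were read beside this group. Of 11 B cell markers, 4 were at or above the floor on the CDP array and 2 on the monocyte array, with summed levels of 10.13 and 9.58 on the log2 scale. Cd79b, a signalling chain of the B cell receptor, was the highest of them, with 9.01 on the CDP and 8.41 on the monocyte array. Vpreb1, a chain of the precursor receptor of B cells, read 6.96 and 6.45, and neither reached 1 unit. The B cell genes Cd79a, Pax5 and Ms4a1 were under the floor on both arrays. Cd22, a sialic acid-binding lectin of B cells, was the marker past the threshold (7.23 and 5.86). Of 15 T and NK cell markers, 5 and 2 were at or above the floor, with summed levels of 9.94 and 9.38. The T cell receptor chains Cd3d, Cd3e and Cd3g were under it on both arrays. Cd247, another chain of that receptor, was tied above it at 6.70. Thy1 was also above it on both (6.90 on the CDP and 6.31 on the monocyte array). Cd5 (6.54) and Cd8a (6.38) were above it on the CDP array alone. Klrd1, which encodes the NK receptor subunit CD94, was the one past the threshold, at 8.003 on the CDP and 4.94 on the monocyte array. The part of such cells in the lymphoid group was not tested.

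Dendritic cell genes did not all stand on the CDP side. Among type 1 genes, Clec9a was far higher in CDP and Naaa in the monocyte. Clec9a encodes the receptor by which type 1 dendritic cells bind dead cells. It read 7.30 on the MDP, 9.86 on the CDP, 5.11 on the cMoP, 5.74 on the classical and 4.77 on the nonclassical array, at least 12.1-fold higher in CDP than in classical monocytes. The CDP array thus held the highest value and the MDP array the next. Naaa, a lysosomal amidase, read 8.22 on the CDP and 10.76 on the monocyte array. The other 6 of the 8 type 1 genes past the floor did not reach 1 unit. Irf8, the transcription factor on which type 1 cells and monocytes both depend, read 11.07 and 10.32 (0.75), Wdfy4, needed for cross-presentation, 9.52 and 8.98, and Cd24a, a surface marker, 11.40 and 10.94. The list's median was 0.39. Xcr1, the chemokine receptor of mature type 1 cells, was under the floor on both arrays.

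The type 2 list was split. Of 11 genes past the floor, 5 were higher in CDP and 3 in the monocyte. Past the floor on both arrays were 8, of which 4 were higher in CDP and 1 in the monocyte. The median was -0.45, the mean was 0.36, and at the higher floor of 7.93 the median turned to 1.05. Cd7 stands on this list too. Kmo, an enzyme of tryptophan breakdown, read 9.09 on the CDP and 6.89 on the monocyte array. Cd209a, a C-type lectin, read 8.40 and 6.85. Tmem176a (1.12) and Tmem176b (1.05, or 0.99 after median centring) are linked membrane proteins. On the monocyte side stood Sirpa (-1.16, or -0.98 after quantile normalization), the receptor for CD47. Irf4 (-1.11), a transcription factor of type 2 cells, and Clec10a (-1.08), a galactose lectin, stood there too. Their CDP values were under the floor (5.62 and 5.46), which leaves them at least 1.37-fold and 1.21-fold higher in the monocyte.

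Of the genes shared by dendritic cells, 3 of 10 were higher in CDP and 3 in the monocyte, with a median of 0.58. Flt3 was one. Itgax, which encodes CD11c, read 5.35 on the MDP, 6.93 on the CDP, 5.16 on the cMoP, 4.20 on the classical and 6.80 on the nonclassical array. The CDP and nonclassical values lay above the floor and the other three below it. Dpp4, a surface peptidase of type 1 cells, read 9.64 on the CDP and 7.72 on the monocyte array. Id2, which restrains E proteins and is needed for type 1 cells, was higher in the monocyte (8.01 and 9.70), as were Cd86, a costimulatory ligand (-1.99), and Btla, an inhibitory receptor (-1.16).

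The plasmacytoid list leaned to CDP, with 9 of 17 genes higher there, 3 higher in the monocyte and a median of 1.38. Past the floor on both arrays were 11, of which 4 were higher in CDP and 2 in the monocyte. Siglech, a surface lectin of plasmacytoid cells, read 7.68 on the CDP array and between 5.14 and 5.71 on the other four. Tcf4, the transcription factor that sets up the plasmacytoid fate, read 9.54 on the CDP and 8.16 on the monocyte array. Cd300c (2.45) and Cox6a2 (2.22), a muscle-type subunit of cytochrome oxidase, stood on the same side. Dntt, Il7r, Ly6d and Bcl11a count here as well as on the lymphoid list. The 3 genes higher in the monocyte were Tlr7, the sensor of single-stranded RNA (5.99 on the CDP and 8.62 on the monocyte array), Irf7, the factor that drives interferon genes (6.69 and 9.21), and Smim5 (-1.07).

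Class II presentation genes were higher in CDP for 4 of 11, with 1 higher in the monocyte and a median of 0.44. The chains of the I-A molecule, H2-Aa and H2-Ab1, read 8.05 and 8.04 on the CDP array against 6.30 and 6.56 on the monocyte array, differences of 1.75 and 1.47. H2-Oa and H2-Ob, which form the modulator of peptide loading, differed by 1.20 and 1.33. Cd74, the invariant chain, differed by less (7.97 and 7.53). Ctss, the protease that trims it, was higher in the monocyte (9.93 and 11.79).

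Both populations carried the transcripts of dividing cells, and differed in 2 of the D cyclins. Of 39 mitosis genes and 37 DNA replication genes past the floor, 0 were past 1 unit in either direction, beside 8.72% of all genes. The medians were 0.11 and 0.29. Mki67, the proliferation antigen, read 11.37 on the MDP, 11.67 on the CDP, 10.64 on the cMoP, 11.26 on the classical and 6.93 on the nonclassical array. Top2a, the topoisomerase of mitotic chromosomes, read 11.63, 11.71, 11.12, 11.28 and 6.16 on the same arrays. The nonclassical array was the low one for both. Of the progenitor gate genes, Kit was under the floor on the classical monocyte array (5.79) and Flt3 was above it (6.74). Of the 18 stem and early progenitor genes past the floor, 10 were past it on both arrays and 8 on the CDP array alone. Cd34 (7.24) and Myb (8.54) were among those above it on the classical monocyte array. The part of progenitors in that sort was not tested. Over the whole mitosis list the medians by array were 9.59, 9.82, 9.63, 9.70 and 5.72 in the same order, and over the replication list 9.37, 9.27, 9.53, 8.98 and 6.85. The replication genes leaned to CDP without reaching the threshold: Mcm6, a subunit of the replicative helicase, read 10.78 on the CDP and 10.22 on the monocyte array, and Pcna, the polymerase clamp, 12.15 and 12.11. Kif23 (0.93) and Fen1 (0.95) came nearest to it and are named here after their values were seen.

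Regulators of the cell cycle outside these lists included 3 genes far higher in CDP. Of the 22 cell cycle control genes past the floor, 3 were higher in CDP and 3 in the monocyte, beside 2.38% and 6.34% of all genes, with a median of -0.07. Cyclins D1, D2 and D3 activate Cdk4 and Cdk6 in G1. Ccnd2 read 10.84 on the CDP and 6.77 on the monocyte array, 16.8-fold higher in CDP. Ccnd1 read 10.21 and 6.92 (9.79-fold), and Cdk6 read 10.73 and 7.71 (8.08-fold). Ccnd3 was the member on the other side, at 9.19 and 9.96, a difference of -0.77 that did not reach the threshold. Cdk4 read 11.004 and 10.37 (0.64). In the plot by array, Ccnd1 and Ccnd2 were lower on both monocyte arrays than on the 3 progenitor arrays, and Ccnd3 was higher. The 3 genes higher in the monocyte were E2f2, a factor of the G1 to S step (-1.29), and the antiproliferative genes Btg1 (-1.07, or -0.93 after quantile normalization) and Btg2 (-1.14, or -0.99).

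**Figure D4:**
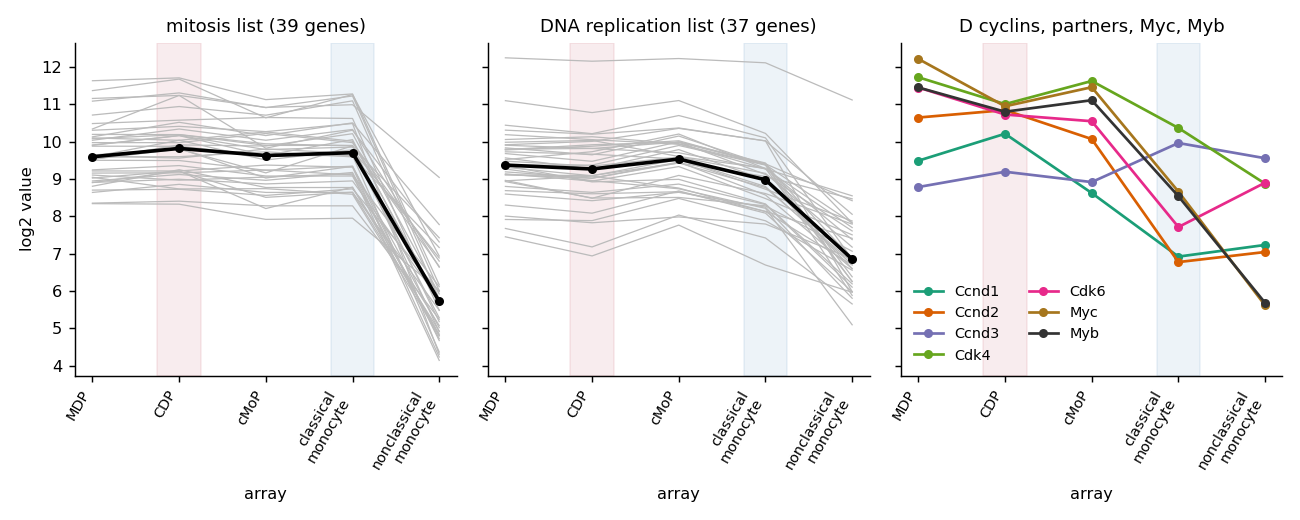
Log2 values on the 5 arrays (horizontal axis) for the mitosis list, the DNA replication list and 7 regulators. Grey lines join the values of 1 gene, the black line joins list medians, and the red and blue bands mark the CDP and classical monocyte arrays. The list medians differ little between those arrays (9.82 and 9.70, 9.27 and 8.98) and drop on the nonclassical array, while Ccnd2 goes from 10.84 to 6.77.

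Promoter windows of the mitosis genes share a short element that their values did not choose. The element TTTGAA, the core of the cell cycle homology region bound by repressors and activators of late cell cycle genes, was searched on both strands from 250 bases before to 50 after each gene start in RefSeq (GRCm38.p6). A gene was counted where any of its windows held the element. It was present in 29 of the 34 mitosis genes with a window (85.3%). Of the 8447 genes past the floor with a window 14.22% held it, and of all 27025 genes with a window 20.2%. The CCAAT box (CCAAT) was present in 26 of 34 (76.5%), against 42.5% and 41.1%. Of the 32 replication genes with a window, 5 held TTTGAA (15.6%) and 15 the E2F element GCGGGAA (46.9%). The E2F element was in 10.1% of the genes past the floor with a window and in 5.29% of all genes with a window. These are matches of letters and show no binding. Promoters of 5 mitosis genes are printed to show the element near the start, chosen after their sequences were seen, with the match in capitals on the strand of the gene.
Cdk1 (chr10:69352913-69352944, GRCm38.p6, - strand): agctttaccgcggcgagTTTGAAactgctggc
Top2a (chr11:99024190-99024229, GRCm38.p6, - strand): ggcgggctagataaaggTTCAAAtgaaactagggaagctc
Kif11 (chr19:37376346-37376381, GRCm38.p6, + strand): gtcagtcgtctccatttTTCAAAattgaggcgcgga
Kif15 (chr9:122951045-122951080, GRCm38.p6, + strand): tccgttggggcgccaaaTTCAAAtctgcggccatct
Cdc20 (chr4:118437344-118437378, GRCm38.p6, - strand): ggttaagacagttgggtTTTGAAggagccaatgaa
The capitals read TTTGAA or, where the element lies on the other strand, its reverse complement. The genes encode the mitotic kinase Cdk1, Top2a, the kinesins Kif11 and Kif15, and Cdc20, an activator of the anaphase-promoting complex. Their differences were 0.02, 0.43, -0.08, 0.30 and 0.05, so that none came near the threshold.

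Growth-related genes leaned to CDP beyond the cell cycle. Myc, a driver of cell growth, read 12.21 on the MDP, 10.95 on the CDP, 11.46 on the cMoP, 8.66 on the classical and 5.61 on the nonclassical array. The order ran from the MDP array down to the monocytes, and CDP exceeded the classical monocyte 4.88-fold. Of 30 ribosome biogenesis genes, 4 were higher in CDP and 0 in the monocyte, with a median of 0.59 and 29 of the 30 above 0. The list's median by array was 9.37 on the MDP, 8.57 on the CDP, 9.46 on the cMoP, 7.92 on the classical and 7.50 on the nonclassical array. The CDP median was thus below those of the MDP and cMoP arrays. The 4 genes were Gnl3, a nucleolar GTPase (9.13 and 7.69), Rrs1 (1.24), Nop58, a core protein of box C/D particles (1.10), and Wdr12 (1.05, and just under the threshold after median centring). The ribosomal proteins did not share this. Among 54 cytosolic ones past the floor the median was 0.03 with 1 past the threshold, and among 77 mitochondrial ones it was 0 with 0.

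On the monocyte side, 21 of 26 classical monocyte genes were higher there and 0 in CDP, with a median of -3.12. Past the floor on both arrays were 16, of which 11 were higher in the monocyte. Lyz2, lysozyme, read 11.50 on the CDP and 13.76 on the monocyte array. Fn1, fibronectin, read 9.45 and 12.69 (9.48-fold), and Hp, haptoglobin, 8.47 and 12.17 (13.1-fold). Ifitm6 (-3.61), Mgst1, a glutathione transferase (-3.89), F10, coagulation factor X (-2.94), Tgfbi (-2.996) and Thbs1 (-2.31) were others. The other 5 did not reach 1 unit, and their CDP values were between 11.12 and 12.50. Ccr2, the receptor for leaving the marrow, read 11.12 and 11.92. Plac8 read 12.50 and 12.50, F13a1, the subunit of coagulation factor XIII, 11.55 and 12.24, and S100a4 11.89 and 12.82. The fifth was Ms4a6c. Of 14 nonclassical monocyte genes past the floor, 7 were higher in the classical monocyte than in CDP and 0 lower, with a median of -0.84. They include Pglyrp1, which binds peptidoglycan (-3.01), Gngt2 (-2.12) and Tnfrsf1b, a TNF receptor (-1.98). Cx3cr1, the fractalkine receptor, did not reach the threshold (10.37 and 10.54).

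Neutrophil markers were read beside these lists. Of 15 neutrophil markers, 6 were at or above the floor on the CDP array and 9 on the monocyte array, and their summed level on the log2 scale was 10.201 and 14.06. The 7 higher in the monocyte were S100a8, S100a9, Mmp8, Lcn2, Cd177, Padi4 and Csf3r. On both arrays 6 members were past the floor, of which 5 were higher in the monocyte. Mmp8, a collagenase, read 6.75 on the CDP and 11.28 on the monocyte array, and Lcn2, a binder of bacterial siderophores, 6.23 and 10.45. Other defining markers were low: Ltf (4.72 and 4.63), Ly6g (4.69 and 4.75), Retnlg and Mmp9 were under the floor on both arrays. Camp and Ngp, secondary granule genes of developing neutrophils, read 6.89 and 6.62 on the monocyte array, just above it. The part of neutrophil RNA in the monocyte values was not tested. Of 9 erythroid markers, 0 and 4 were at or above the floor, of which Car1 (-1.83) and Car2 (-1.25), carbonic anhydrases, were past the threshold, and Klf1 and Alas2 were under it on both. Megakaryocyte markers (4 and 3 of 7 at or above the floor) had no gene past the threshold, and Pf4 and Itga2b were under the floor. Of 11 markers of basophils, mast cells and eosinophils, 2 were at or above it on each array, with Mcpt8, a basophil protease, higher in CDP (1.29).

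Primary granule genes, which are made at the promyelocyte and early monocyte stages, were divided. Of 18, 3 were higher in CDP and 6 in the monocyte, with a median of 0.44 and a mean of -0.28. Mpo, myeloperoxidase, read 12.86 on the CDP array and 11.16 on the monocyte array, a difference of 1.70. Elane, neutrophil elastase, went the other way, with 8.99 on the CDP and 10.19 on the monocyte array. On the cMoP array both were higher still (13.58 and 12.55). Cst7, an inhibitor of cathepsins (1.98), and Prss57, a granule protease (1.06), were higher in CDP. Fcnb, a ficolin (-2.94), Clec5a, a lectin that signals through DAP12 (-2.77), Ctsc, the protease that activates granule enzymes (-2.58), Gstm1 (-2.49) and Igsf6 (-1.94) were higher in the monocyte.

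Genes of innate sensing stood on the monocyte side. Of 23 pattern recognition genes past the floor, 20 were higher in the monocyte and 0 in CDP, with a median of -1.75. Past the floor on both arrays were 15, of which 12 were higher in the monocyte. Tlr13, which senses bacterial ribosomal RNA, read 4.50 on the MDP, 5.60 on the CDP, 5.67 on the cMoP, 10.72 on the classical and 11.42 on the nonclassical array. All 3 progenitor arrays were under the floor. Tlr8 read 4.89 on the CDP and 8.35 on the monocyte array, and Tlr4, the receptor for lipopolysaccharide, 5.18 and 8.03. Ly96, its partner MD-2, differed by -1.90, and Cd14, which hands lipopolysaccharide to both, by -1.47. Tlr2 (-1.42), Tlr6 (-1.72) and Tlr1 (-1.07, or -0.98 after quantile normalization), which bind lipoproteins, were on the same side. So was Myd88, the adaptor of most of these receptors (-1.10, or -0.97). Tlr9, the sensor of unmethylated DNA, did not reach the threshold (8.52 and 9.12). The lectin Clec7a, a receptor for fungal glucan, read 7.68 and 9.84, and Nlrp3, an inflammasome sensor, 7.19 and 8.37.

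Receptors and effectors of uptake were also higher in the monocyte. Of 9 Fc and complement receptor genes, 5 were higher in the monocyte and 1, Itgax, in CDP, with a median of -1.56. Only 5 of the 9 were past the floor on both arrays, with 2 higher in the monocyte and 0 in CDP. Fcgr3, a low-affinity receptor for IgG, read 8.10 on the MDP, 6.80 on the CDP, 10.83 on the cMoP, 10.97 on the classical and 10.79 on the nonclassical array. The CDP array was the lowest of the 5 and differed 18.04-fold from the classical monocyte. Fcgr1, the high-affinity receptor, read 6.10 and 8.26, and Itgam, the CD11b chain of complement receptor 3, 7.79 and 11.06. Fcer1g, the signalling chain that Fc receptors share, differed by -0.45. Of the 6 NADPH oxidase genes, 3 were higher in the monocyte. They were Cybb (9.11 and 12.46), the catalytic subunit, Cyba (-1.66), its membrane partner, and Ncf4 (-1.48). The cytosolic subunit Ncf1 (-0.34) and the GTPase Rac2 (-0.56) did not reach the threshold.

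Lysosomal genes followed with smaller differences, 13 of 29 higher in the monocyte and 0 in CDP, with a median of -0.86. The largest were those of the cathepsins Ctsc and Ctss, Cd68, a lysosomal sialoglycoprotein (9.92 and 11.75), Atp6v1b2, a subunit of the proton pump (-1.76), and Lipa, the acid lipase (-1.75). Of the 13 calls 4 ended after quantile normalization, namely Ctsa (-0.99), Ctsh (-0.92), Lamp2 (-0.99) and Psap (-0.99). Markers of tissue macrophages were read beside these lists. Of 15, 3 were at or above the floor on the CDP array and 4 on the monocyte array, with summed levels of 9.75 and 11.19. Hmox1, heme oxygenase (-3.46), and Adgre1, which encodes F4/80 (-2.99), were higher in the monocyte, and Cd163, a hemoglobin scavenger, in CDP (7.26 and 5.64). Siglec1 (6.78) and Axl (6.40) were also above the floor on the monocyte array, without reaching the threshold. The complement genes C1qa, C1qb and C1qc and the macrophage genes Mertk and Vcam1 were under the floor on both arrays. The part of macrophages was not tested.

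Interferon-stimulated genes were higher in the monocyte for 20 of 24, with 0 higher in CDP and a median of -1.99. Past the floor on both arrays were 18, of which 14 were higher in the monocyte. These genes are induced through the receptors of type I interferon and restrict viruses. Ifit3, which binds viral RNA complexes, read 5.10 on the MDP, 5.69 on the CDP, 5.09 on the cMoP, 9.23 on the classical and 7.22 on the nonclassical array. Rtp4 read 7.07, 5.38, 4.99, 9.24 and 9.51. Both were under the floor on the CDP and cMoP arrays and above it on both monocyte arrays. Oasl2 (-2.77), Zbp1, a sensor of Z-form nucleic acid (-2.77), Ddx58, which encodes the RNA sensor RIG-I (-2.56), Xaf1 (-2.47), Mx1, a dynamin-like restriction factor (-2.20), and Usp18, which damps the receptor (-1.66), stood on the same side. Stat2, a carrier of the interferon signal, was close to the threshold (-1.002, or -0.87 after quantile normalization). The 4 others were Bst2, tetherin, at 10.42 and 9.66, Ifi205 (0.26), Irf9 (-0.53) and Trim30a (-0.54). The receptor subunits Ifnar1 (-0.48) and Ifnar2 (-0.07) did not reach the threshold. By array the list's median was 6.63 on the MDP, 6.85 on the CDP, 6.13 on the cMoP, 9.04 on the classical and 8.43 on the nonclassical array.

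**Figure D5:**
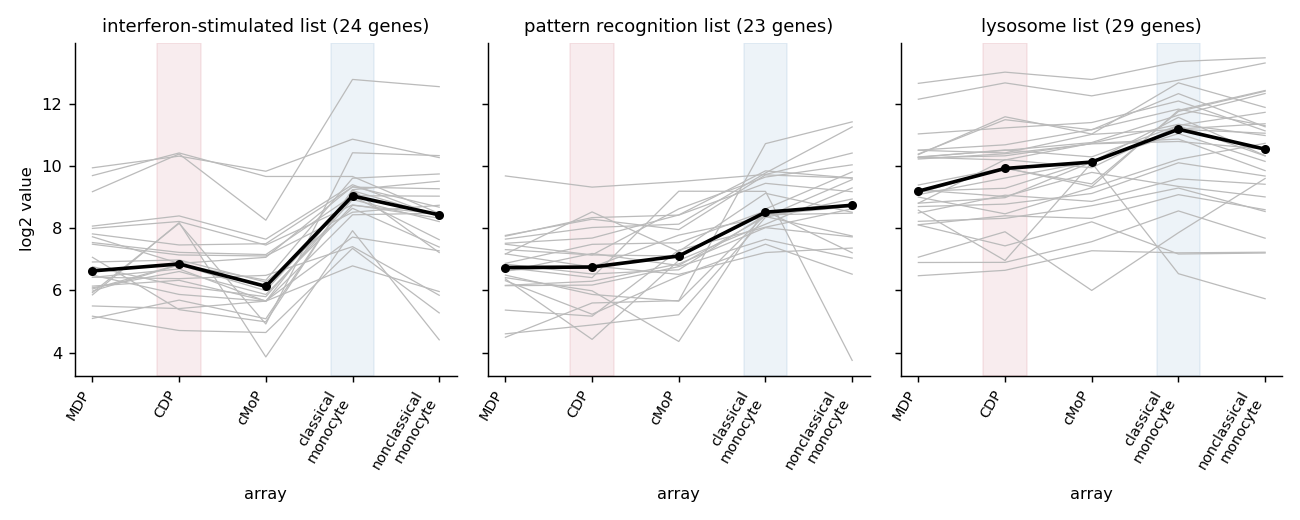
Log2 values on the 5 arrays (horizontal axis) for 3 lists. Grey lines join the values of 1 gene, the black line joins list medians, and the red and blue bands mark the CDP and classical monocyte arrays. The interferon-stimulated median goes from 6.85 on the CDP to 9.04 on the classical monocyte array, the pattern recognition median from 6.75 to 8.51 and the lysosome median from 9.92 to 11.18.

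The promoter windows of these genes were searched for the interferon-stimulated response element, spelled GAAA, any 2 bases and GAAA, on both strands. That motif was added after the values were seen. It was present in 11 of the 17 interferon-stimulated genes with a window (64.7%) and in 8 of the 13 that were higher in the monocyte (61.5%). It was present in 3.76% of the 8447 genes past the floor with a window and in 3.99% of all 27025 genes with a window. Among all genes with a window it was found in 53 of the 528 higher in the monocyte (10.04%) and in 3 of the 187 higher in CDP (1.604%). The stretches that hold it are printed for 6 genes higher in the monocyte, on the strand of the gene and with the match in capitals.
Ifit3 (chr19:34583392-34583431, GRCm38.p6, + strand): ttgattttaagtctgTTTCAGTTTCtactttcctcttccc
Ifit1 (chr19:34640789-34640828, GRCm38.p6, + strand): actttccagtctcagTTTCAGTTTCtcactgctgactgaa
Oas1a (chr5:120907526-120907554, GRCm38.p6, - strand): ccttctcgggaaatgGAAACTGAAAatct
Oas3 (chr5:120777710-120777749, GRCm38.p6, - strand): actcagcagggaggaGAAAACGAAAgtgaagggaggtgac
Rsad2 (chr12:26456548-26456587, GRCm38.p6, - strand): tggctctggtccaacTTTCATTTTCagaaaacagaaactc
Stat2 (chr10:128270261-128270300, GRCm38.p6, + strand): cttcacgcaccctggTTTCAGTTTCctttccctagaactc
The capitals hold the element or its reverse complement, and each stretch ends before the gene start. The differences of these genes run from -3.54 for Ifit3 to -1.002 for Stat2. Oas1a and Oas3 make the messenger that activates RNase L, Rsad2 encodes viperin, and Ifit1 binds viral RNA caps. The element TTGCNNAA, which C/EBP factors bind, was in 88 of 528 genes higher in the monocyte (16.7%) and in 11 of 187 higher in CDP (5.88%). It was in 9.68% of genes past the floor and in 12.2% of all genes, counting those with a window. The ETS element GAGGAAG, of the kind the factor PU.1 binds, was in 23.9% and 21.9% of such genes higher in the monocyte and in CDP. Past the floor 16.3% of genes held it, and over all genes 15.4%. The E box CANNTG was in 75.4% and 72.2%, against 66.9% and 74.99%.

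Transcription factors of the myeloid and dendritic lineages were found on both sides, 8 of 49 higher in CDP and 12 in the monocyte. Of all genes 2.38% and 6.34% were higher on these sides. The list's median was -0.34. Higher in CDP were Myc, Myb, Satb1, Tcf4, Bcl11a, Runx3 (1.41) and Zeb1 (1.10). So was Bach2, a repressor of lymphoid cells (6.72 and 4.92, at least 1.37-fold). Higher in the monocyte were Id1 (6.43 and 8.42) and Id2, inhibitors of E proteins, Irf5, a factor of inflammatory cytokine genes (8.64 and 10.40), and Bcl6, a repressor (7.60 and 9.16). Bach1, a repressor that senses heme (-1.57), Rxra, a nuclear receptor (-1.24), Atf3 (-1.13), Nr4a1 (-1.10) and Irf4 were also higher there, as were Irf2 (-1.11), Nfe2 (-1.06) and Cebpb (-1.01). Irf2, Nfe2 and Cebpb missed the threshold after quantile normalization, at -0.96, -0.93 and -0.93. Several factors known for their part in monocyte development did not separate the arrays by 1 unit. Spi1, which encodes PU.1, read 10.39 on the CDP and 11.10 on the monocyte array, and Klf4 8.79 and 9.47. Zeb2 read 9.998 and 10.66, and Cebpa was tied on both arrays at 8.36.

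Cytokine receptors were found on both sides. Of 27 past the floor, 4 were higher in CDP and 9 in the monocyte, with a median of -0.43. Beside Flt3, Kit and Il7r, Il18rap, a chain of the interleukin 18 receptor, was higher in CDP (6.74 and 5.46). Csf3r, the receptor of G-CSF, was higher in the monocyte (7.41 and 9.93), as was Il13ra1, a chain of the interleukin 13 receptor (5.67 and 8.26). Tnfrsf1b, Ifngr1, the ligand-binding chain of the interferon-gamma receptor (-1.77), Tnfrsf21 (-1.67), Il10ra (-1.36), Il17ra (-1.09), Il6ra (-1.06) and Ifngr2 (-1.06) were on the same side. Il17ra, Il6ra and Ifngr2 fell short after quantile normalization, at -0.95, -0.91 and -0.91. The receptor of M-CSF, by which both were gated, and the GM-CSF receptor chain Csf2ra (-0.58) did not reach 1 unit. Il6st went toward CDP without reaching it (0.82).

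Of 24 adhesion and homing genes, 1 was higher in CDP and 4 in the monocyte, beside 2.38% and 6.34% of all genes. The list's median was -0.45. Pecam1, an adhesion molecule of endothelium and progenitors, read 9.43 on the CDP and 6.89 on the monocyte array. Itgb2, the chain shared by the leukocyte integrins, read 8.99 and 11.22, and Itga1, a collagen receptor chain, 7.61 and 9.63. Ccr1, a receptor for inflammatory chemokines, read 7.99 on the classical array and between 3.65 and 4.10 on the other four. Itgam was the remaining one. Cxcr4, which keeps cells in the marrow, read 11.51 and 11.57. Of 20 immediate early genes, which respond to handling as well as to signals, 4 were higher in the monocyte and 0 in CDP, with a median of -0.68. Fos read 7.56 and 8.97, Jun went toward CDP without reaching the threshold (0.70), and the other three were Btg2, Nr4a1 and Atf3.

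Gene families were picked for description after their values were seen, so their counts are descriptions alone. Of 11 Clec4 lectin genes measured, 5 were under the floor on both arrays. The other 6 were under it on the CDP array and above it on the monocyte array, so that no direction but the monocyte's was open to them. Clec4a3, an inhibitory lectin, read 5.88 on the CDP and 11.16 on the monocyte array, and Clec4e, which senses mycobacterial glycolipid, 4.43 and 8.13. The 3 paired PILR receptors were likewise past the floor on the monocyte array alone (-3.36 to -2.71). The 3 NAIP sensors of bacterial flagellin and secretion needles were above the floor on both arrays and higher in the monocyte (-2.50 to -1.67). Of the 3 adhesion receptors of the ADGRE family, 2 were above it on both arrays, and the differences ran from -4.09 to -2.99. Of 5 LILR and PIR receptors measured, 3 were above it on both arrays and higher in the monocyte, among them Lilrb4a at 7.56 and 11.49. Of 9 Schlafen genes measured, 6 were above it on both arrays, of which 3 were higher in the monocyte. Slfn5 read 6.29 and 9.93. Of 19 MS4A genes measured, 6 were above it on both arrays, of which 3 were higher in the monocyte. Ms4a4a was past it on the monocyte array alone (4.54 and 8.45). Of 8 CD300 genes, 5 were above it on both arrays, with 4 higher in the monocyte and 1, Cd300c, in CDP. Of 9 PYHIN genes, whose proteins bind DNA, 4 were above it on both arrays and 1 of these was higher in the monocyte. Members of such families are close in sequence, and probes that read more than 1 of them were not tested for.

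Of 5 fatty acid desaturase genes measured, 4 were past the floor and 3 were higher in CDP, 2 of these past it on the CDP array alone. They were Fads2, Fads3 (7.80 and 5.87) and Fads1 (8.33 and 6.65). Fads6 differed by 0.10. Fads1 and Fads2 encode the desaturases that make polyunsaturated fatty acids. On the MDP array they read 8.04 and 8.10, also above both monocyte arrays.

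Of 79 miRNA genes past the floor, 16 passed on the CDP array alone and so could only be higher there. Of the 63 past it on both arrays, 1 was higher in CDP. In all, 3 of the 79 were higher in CDP and 0 in the monocyte, beside 2.38% of all genes higher in CDP. They are printed with the seed (bases 2 to 8) of the 5′ arm in capitals, from RefSeq (GRCm38.p6), because the seed sets which targets a mature form pairs with. The sources used here do not say whether these probe sets measure the primary transcript, the hairpin or the mature form.
mmu-miR-17-5p (chr14:115043684-115043706, GRCm38.p6, + strand): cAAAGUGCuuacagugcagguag
mmu-miR-18a-5p (chr14:115043867-115043889, GRCm38.p6, + strand): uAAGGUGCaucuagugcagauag
mmu-miR-181b-5p (chr2:38853845-38853868, GRCm38.p6, + strand): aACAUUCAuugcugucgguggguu
The 3 seeds differ from each other. Mir17 read 8.88 on the MDP, 8.09 on the CDP, 7.01 on the cMoP, 6.58 on the classical and 7.76 on the nonclassical array. Mir18 read 8.56, 7.76, 6.43, 5.99 and 6.99. For both, the MDP array was the highest and the classical monocyte array the lowest of the 5 arrays. They are neighbours on chromosome 14, so they are not separate observations. Mir181b-2, on chromosome 2, read 6.44 on the CDP and 4.82 on the monocyte array.

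For the genes of each side, the highest of the 5 arrays was taken at any margin. A gene called higher on 1 of the compared arrays cannot be highest on the other. The same shares over all genes were not computed. Of the 249 genes higher in CDP, 120 (48.2%) were highest on the MDP array, 102 (41.0%) on the CDP array, 19 (7.63%) on the cMoP array and 8 (3.21%) on the nonclassical array. Of the 664 genes higher in the classical monocyte, 376 (56.6%) were highest there, 261 (39.3%) on the nonclassical array, 26 (3.92%) on the cMoP array and 1 on the MDP array. Clec9a, Cd7, Siglech, Ccnd1 and Kmo are among those highest on the CDP array. Dntt, Cd34, Myc and Bcl2 are among those highest on the MDP array. For Bcl2 the margin was small, with 11.19 on the MDP and 11.04 on the CDP array.

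The 3 arrays outside the comparison give the same measure in other cells. Of the 249 genes higher in CDP, 170 (68.3%) were also at least 1 unit higher on the MDP than on the nonclassical array, as were 16.2% of all genes compared, and 4 were at least 1 unit lower. Those 170 are 10.02% of the 1697 genes higher on the MDP array. Between the cMoP and nonclassical arrays 119 of the 249 (47.8%) were higher in cMoP, against 17.4% of all, and 10 were lower. They are 6.53% of the 1822 genes higher in cMoP. Of the 664 genes higher in the classical monocyte, 404 (60.8%) were at least 1 unit higher on the nonclassical than on the MDP array, against 8.41% of all, and 23 were lower. The 404 are 45.9% of the 880 genes on that side. Set against the cMoP array, 332 of the 664 (50%) were higher on the nonclassical array, against 8.67% of all, and 45 were lower, and the 332 are 36.6% of 908. Both progenitor comparisons share the nonclassical array, and no array of the CDP comparison enters either.

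Some genes took the other side on the arrays outside the comparison. Tcf7l2, a transcription factor of Wnt signalling, read 7.46 on the MDP, 7.45 on the CDP, 6.80 on the cMoP, 5.69 on the classical and 10.07 on the nonclassical array, so that the classical monocyte was the lowest of the 5 arrays. Itgax, Grap2 and Chst15 are the others of the 4 genes higher in CDP and lower in MDP than in nonclassical monocytes. Among the 23 higher in the classical monocyte yet lower in the nonclassical than in the MDP were Mmp8, Clec5a, Elane, Itga1 and the histone genes H2ac4 (-1.17), H2bc3 (-1.14) and H4c3 (-1.13). Of the 10 genes higher in CDP and lower in cMoP than in nonclassical monocytes, Itgax, Tcf7l2, Grap2 and Chst15 are 4, and Rtn4rl1 had the largest difference. The 45 higher in the classical monocyte yet lower in the nonclassical than in the cMoP include Chil3, S100a8, Mmp8 and Lcn2, among the 20 largest differences toward the monocyte. Most of these names were chosen after their values were seen.

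Calls near the limits are the least certain. At the threshold of 1 unit, Firre (1.001) and Cct3 (1.002) were just inside on the CDP side and Stat2, Cd300a and Ginm1 (-1.002, -1.002 and -1.003) on the monocyte side. Just outside were Nrgn, Ldah, Ctage5, C1qbp and Rbm4b, at most 0.0018 units short of it. At the floor, Arhgef5, Gm13375 and Gpr157 were just inside with a higher value of 6.27, and Zfp658, Myo15b and Hif1an just outside with values that round to the same figure. Of the 913 called genes, 110 of the 249 higher in CDP (44.2%) and 152 of the 664 higher in the monocyte (22.9%) had their lower value under the floor. Of the 48 called genes with several probe sets, 24 had a probe set that was short of the threshold or of the other sign, and in 5 the probe sets had both signs.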

How the data were processed

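Log2 expression values of 35556 probe sets on 5 mouse gene arrays, 1 for each population, were taken as deposited by the authors. Per the labels' protocols, sorted cells were extracted by RNAqueous-Micro and labelled by Nugen Encore Biotin. The sources used here do not give background correction, normalization, summarization, software or the base of the logarithm. Base 2 was read from the range, 1.59 to 14.24, and folds would change with another base.

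Of the probe sets, 21789 carry 1 symbol in the platform annotation, 1621 several and 12146 none listed. A gene's value was its probe set with 1 symbol and the highest mean over the 5 arrays (999 genes had several). CDP minus classical monocyte was taken with no further scaling (array medians 6.13 and 6.07), a floor of 6.27 and a threshold of 1 log2 unit. With 1 array a population there is no test. Median centring, quantile normalization, a floor at the upper quartile, no floor and averaged probe sets were the alternatives. Scripts (Python 3.11.15, pandas 2.3.3) were tested on simulated data.

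The text names the 20 largest differences a side, list members past the threshold with up to 4 other high members of each list, and the 5 genes nearest each side of the threshold. Other names were chosen after their values were seen. The comparison, the 31 gene lists and the rules were chosen with earlier results of these data known.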

Additional observations from a re-analysis of the deposited data

How the results depend on the processing

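Under median centring, quantile normalization, a floor at the upper quartile, no floor and averaged probe sets, the count higher in the classical monocyte ran from 543 to 747 and stayed above that in CDP (139 to 282), and 66.6% to 79.6% of calls were on the monocyte side. No scaling moved the median difference by more than 0.06 units. The higher floor of 7.93 left 139 genes higher in CDP, of which 75.5% were also higher in MDP and 56.8% in cMoP than in nonclassical monocytes. Of genes higher in the classical monocyte, 45.5% were also higher in nonclassical than in cMoP after median centring, and 66.3% than in MDP after quantile normalization. The type 2 dendritic median turned from -0.45 to 1.05 at the higher floor, and the macrophage median from -0.71 to 0.0022 with no floor. The first then rests on fewer members and the second on all 15 measured rather than 5, and the cause was not tested. Of 308 named genes, 4 lost the call with median centring and 19 with quantile normalization, each with a value within 0.14 units of the threshold. Over all calls, median centring kept 218 of the 249 genes higher in CDP and all 664 higher in the monocyte. Quantile normalization kept 239 of the 249 and 559 of the 664. No paired analysis was possible because each population has 1 array, and no array could be left out. Signal over background was not given, so values near the floor limit the folds.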

Other observations

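Probe sets without a single symbol hold further differences that could not be named. Of 12146 with no symbol listed, 5425 were past the floor, and 273 of these were higher in CDP and 404 in the classical monocyte, with differences from -5.43 to 6.46. Of 1621 with several symbols, 816 were past the floor, and 4 were higher in CDP and 27 in the monocyte.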
